A study of Mus musculus with 8 samples.

Results

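The lungs described here came from mice given lipopolysaccharide (LPS), with or without YW3-56. The labels call YW3-56 an inhibitor of peptidylarginine deiminase 4 (PAD4), and it also inhibits other active members of that enzyme family. The lungs were chosen by their treatment labels, 3 mice with LPS alone and 2 with the dual treatment, and make up 5 of the 8 sequenced lungs. The remaining 3 lungs are controls and serve as a reference. The mice were females aged 6 to 8 weeks, of strain C57BL/6 by the labels and C57BL/6J by the study's methods. LPS mice 1, 6 and 7 received LPS at 35 mg/kg. Dual-treated mice 2 and 5 received the same LPS 0.5 h after an injection of YW3-56 at 10 mg/kg in DMSO, and control mice 1, 2 and 4 received intravenous DMSO and then saline. Lung tissue was taken at 24 h in each group. The study's methods name no DMSO injection for the LPS mice, so the inhibitor and its vehicle cannot be told apart in this comparison. Those methods state equal group sizes, but the dual-treated lungs analysed and deposited number 2.

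LPS is a component of the outer membrane of Gram-negative bacteria that activates Toll-like receptor 4, and from there the NF-kB and interferon programs of endothelial, epithelial and myeloid cells. In the lung these programs bring adhesion molecules to the vessel wall, chemokines into the air spaces, and neutrophils and monocytes out of the blood. PAD4, encoded by Padi4, converts arginine in histones to citrulline and is known for its part in the release of neutrophil chromatin as extracellular traps.

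Values are CPM, a gene's count relative to the library total after scaling by the trimmed mean of M-values, listed as LPS mice 1, 6 and 7, then dual-treated mice 2 and 5, then control mice 1, 2 and 4. The libraries held 19061949 to 20908608 counts, and the trimmed-mean factors were 0.81, 0.894 and 0.93 with LPS, 1.11 and 1.09 with dual treatment and 1.07, 1.08 and 1.06 in the controls. The log2 fold change (log2FC) is dual treatment minus LPS alone unless another pair is named, fitted with edgeR (quasi-likelihood F-test), and p-values were adjusted by the Benjamini-Hochberg method over 18560 genes. A gene rose or fell where the fold change was over 2 and the adjusted p under 0.05. By that rule 6264 genes differed between dual treatment and LPS alone (33.8% of those tested), of which 3666 rose (19.8%) and 2598 fell (14%). The median log2FC of all genes was 0.06. Both dual-treated mice lay above the 3 LPS mice in 7039 genes (37.9%) and below them in 6100 (32.9%). The 95% interval of the difference stayed within 2-fold in 6514 genes (35.1%). With scaling by library size in place of trimmed means, the median of all genes moved to 0.38, and 5118 genes rose while 1735 fell. Rising genes then made up 74.7% of the calls, compared with 58.5%.

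The lung origin of the samples was visible in their markers. Sftpc, the surfactant protein of alveolar type 2 cells, was at 16566, 11054 and 8322 CPM with LPS, 8528 and 17890 CPM with dual treatment and 24217, 19567 and 24535 CPM in the controls. Ager, of alveolar type 1 cells, was at 2432, 2011 and 1296 CPM with LPS, 979 and 1411 CPM with dual treatment and 2336, 2186 and 2338 CPM in the controls. LPS mice 6 and 7 were also high in squamous epithelium and skeletal muscle genes, with squamous genes summing to 922 and 2399 CPM against 33.7 CPM or less in the other 6 lungs, and named genes whose calls change without these mice are given below. In bulk lung, fewer cells of a type and less RNA per cell cannot be told apart, and this holds for each cell type marker below.

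Each dual-treated mouse is described here on its own, over genes that were called from both mice together. Of the 3666 genes that rose, mouse 2 was above the 3 LPS mice in 3654 and mouse 5 in 3634. Of the 2598 genes that fell, mouse 2 was below them in 2490 and mouse 5 in 2486. In the genes that rose, the median distance from the LPS mean was 1.61 (log2) in mouse 2 and 1.82 in mouse 5, and in the genes that fell it was -1.60 and -1.81. From the control mean, the genes that rose had medians of -0.11 in mouse 2 (quartiles -0.53 and 0.39) and 0.092 in mouse 5 (-0.22 and 0.49), with 77.6% and 86.6% within 2-fold. Those that fell had medians of 0.066 (-0.35 and 0.59) and -0.086 (-0.43 and 0.28), with 77% and 84.2% within 2-fold. Between these mice, 90.7% of tested genes were within 2-fold, against 89.1% to 91.5% for pairs of LPS mice and 93.9% to 95.1% for pairs of controls. The spread beyond counting error, as chi-square per degree of freedom, was 44.9 for the dual-treated pair, 27.4 to 43.9 for LPS pairs and 8.73 to 13.4 for control pairs. Farther than 2-fold from the control mean were 1842 genes above and 1355 below in mouse 2, and 1280 above and 746 below in mouse 5.

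**Figure D1:**
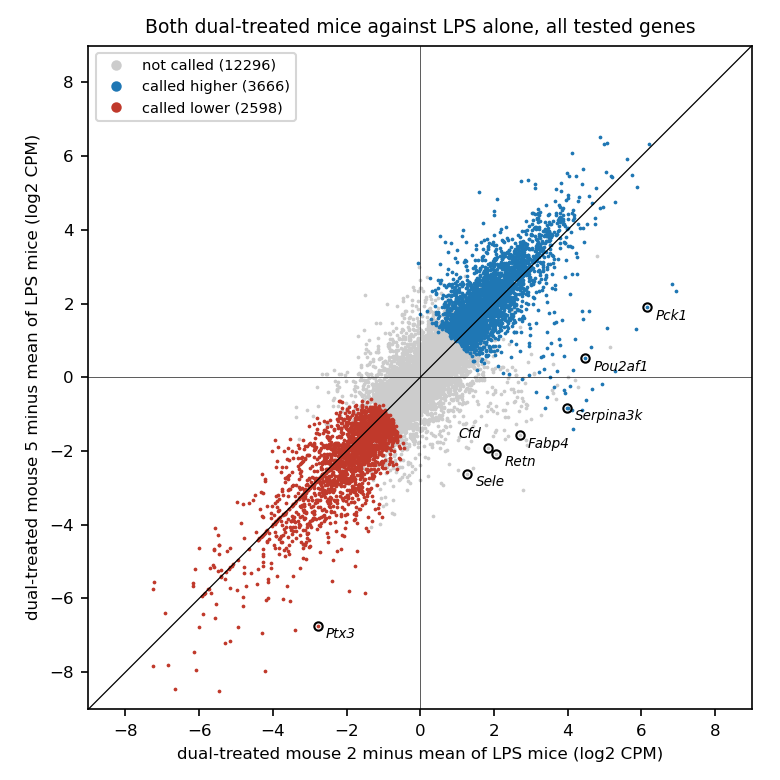
Difference in log2 CPM from the mean of the LPS mice for each of the 18560 tested genes, mouse 2 on the horizontal axis and mouse 5 on the vertical axis, with the line of equal values. Genes that rose with dual treatment (3666) and genes that fell (2598) are marked, and the 8 circled protein-coding genes differ most between the mice among those with at least 10 CPM in 1 of them.

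Among the 10 protein-coding genes whose fall stood farthest from 0, several encode secreted signals. Cxcl10 (ENSMUSG00000034855, chromosome 5, 92494497 to 92496748, GRCm39), a chemokine for T cells and natural killer cells that interferons induce, was at 4967, 2007 and 2330 CPM with LPS, 28.2 and 7.99 CPM with dual treatment and 11.8, 11.1 and 11.8 CPM in the controls (log2FC -7.42, 95% interval -8.96 to -5.89, adjusted p = 2.55e-05). The dual-treated values bracketed those of the controls and were far below each LPS mouse. Il22 and Il17f, cytokines of type 17 lymphocytes, were high in LPS mouse 1, lower in LPS mice 6 and 7, and nearly uncounted elsewhere. Il22 was at 44.4, 4.91 and 7.87 CPM with LPS, 0 and 0.0439 CPM with dual treatment and 0, 0 and 0 CPM in the controls, and its pooled counts were 839 times those of the dual-treated mice, which held 1 count (95% counting interval 150 to 33167). The ratio was 287 without LPS mouse 1, and at least 140 without dual-treated mouse 5, with a floor of 3 counts. Il17f was at 29.2, 3.58 and 5.64 CPM with LPS, 0.0454 and 0 CPM with dual treatment and 0, 0.0939 and 0 CPM in the controls, a ratio of 564 against 1 count (95% counting interval 101 to 22292) that was 207 without LPS mouse 1 and at least 97.2 without dual-treated mouse 2. Dio2 (ENSMUSG00000007682, chromosome 12, 90691322 to 90705819), the deiodinase that activates thyroid hormone, was at 393, 244 and 351 CPM with LPS, 4.72 and 1.23 CPM with dual treatment and 0.636, 4.04 and 0.276 CPM in the controls (log2FC -6.80, 95% interval -8.67 to -4.92, adjusted p = 0.000123). Sectm1b, a secreted and transmembrane protein, was at 57.8, 56.9 and 80.1 CPM with LPS, 1.68 and 0.351 CPM with dual treatment and 0.685, 0.329 and 0.46 CPM in the controls (log2FC -6.0, 95% interval -7.04 to -4.96, adjusted p = 1.08e-05). Genes entered this set only if no LPS value overlapped a dual-treated value.

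The other members of that set were Islr2, Mybph, Prss22, Apol8 and Acta1. Islr2, a leucine-rich repeat membrane protein, was at 42.8, 26.9 and 30.8 CPM with LPS, 0.363 and 0.0878 CPM with dual treatment and 0.196, 0.516 and 0.23 CPM in the controls (log2FC -7.19, 95% interval -8.28 to -6.10, adjusted p = 6.77e-06). Mybph, a myosin-binding protein, was at 33.3, 25.3 and 30.9 CPM with LPS, 0.363 and 0.176 CPM with dual treatment and 0.245, 0.282 and 0.092 CPM in the controls (log2FC -6.77, 95% interval -7.58 to -5.95, adjusted p = 2.75e-06). Prss22, a serine protease of airway epithelium, was at 41.6, 28.8 and 34 CPM with LPS, 0.771 and 0.132 CPM with dual treatment and 0.0979, 0.0939 and 0.092 CPM in the controls (log2FC -6.26, 95% interval -7.28 to -5.24, adjusted p = 8.44e-06). For these 3 genes the LPS mice were alike, and both dual-treated mice were under 1 CPM, as the controls were. Apol8, an apolipoprotein L, was at 59.1, 31.4 and 26.3 CPM with LPS, 0.726 and 0 CPM with dual treatment and 0, 0.188 and 0.138 CPM in the controls (log2FC -6.74, 95% interval -8.51 to -4.97, adjusted p = 9.36e-05). Without mouse 2 no dual-treated count of Apol8 was left, and LPS was at least 295-fold higher, with a floor of 3 counts. Acta1, skeletal muscle actin, differed from the rest, since LPS mouse 1 was near the controls at 0.534 CPM and LPS mice 6 and 7 were at 210 and 600 CPM (log2FC -10.90, and -1.95 without mice 6 and 7, when it did not pass).

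Of the 19 cytokines that could be tested, 12 fell and 0 rose, with a median log2FC of -1.54. With library size scaling 3 rose and 10 fell, and with upper-quartile factors 2 rose and 12 fell. Il1rn, the interleukin 1 receptor antagonist, was at 124, 152 and 89.5 CPM with LPS, 20.2 and 17.5 CPM with dual treatment and 9.2, 6.38 and 6.48 CPM in the controls (log2FC -2.69, 95% interval -3.24 to -2.15, adjusted p = 2.37e-05). Il1b, the inflammatory ligand that this antagonist opposes, was at 122, 105 and 90.8 CPM with LPS, 34.7 and 60 CPM with dual treatment and 12.2, 10.7 and 9.79 CPM in the controls (log2FC -1.16, 95% interval -1.66 to -0.66, adjusted p = 0.00163). Both genes fell, and both dual-treated mice remained above the controls. Il1b no longer passed without dual-treated mouse 2 (-0.84) or with library size scaling (-0.83). Csf3, which drives granulocyte production, differed between the dual-treated mice at 7.22 and 0.439 CPM, against 174, 140 and 104 CPM with LPS (log2FC -5.19, or -8.31 without mouse 2). Csf1 and Tnf did not pass. Csf1, the macrophage growth factor, was at 180, 133 and 118 CPM with LPS, 226 and 134 CPM with dual treatment and 89.2, 77.6 and 77.9 CPM in the controls (log2FC 0.32, 95% interval -0.19 to 0.83). Tnf was at 23.2, 11.3 and 9.43 CPM with LPS, 10.1 and 8.65 CPM with dual treatment and 8.71, 8.03 and 6.85 CPM in the controls (log2FC -0.64, 95% interval -1.42 to 0.13), and passed as a fall without LPS mice 6 and 7 (-1.32). With 1 mouse left out, the log2FC of Tnf was -0.89 to -0.15. Without LPS mouse 1, 2 cytokines rose, as they did without dual-treated mouse 2, while 11 and 12 fell.

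Of 7 neutrophil-attracting chemokines, 5 fell (median log2FC -2.22). Cxcl2 (ENSMUSG00000058427, chromosome 5, 91051730 to 91053797), a CXCR2 ligand, was at 718, 434 and 385 CPM with LPS, 10.6 and 6.89 CPM with dual treatment and 3.77, 2.72 and 6.76 CPM in the controls (log2FC -5.87, 95% interval -6.90 to -4.85, adjusted p = 1.14e-05). Cxcl1 was at 338, 75.2 and 153 CPM with LPS, 29.1 and 12.6 CPM with dual treatment and 2.89, 4.41 and 4.74 CPM in the controls (log2FC -3.18), and Cxcl3 fell by the same test (log2FC -4.11). For these ligands each dual-treated mouse was below each LPS mouse, and mouse 2 was above mouse 5. The remaining 2 genes of the list did not pass the test. Of the monocyte-attracting group, 3 of 8 fell and 0 rose (median log2FC -0.27, and 0.10 with library size scaling, and 0.19 without LPS mouse 1). Ccl5, Ccl3 and Ccl4 fell, with log2FC -3.15, -2.18 and -1.73, though Ccl4 did not pass without LPS mouse 1 (-0.99) or dual-treated mouse 5 (-1.56). Ligands of CCR2 did not pass. Ccl2 was at 145, 50.4 and 49.2 CPM with LPS, 57.8 and 35.9 CPM with dual treatment and 4.35, 6.8 and 4.18 CPM in the controls (log2FC -0.80, 95% interval -1.82 to 0.22), with -1.20 to -0.095 when 1 mouse was left out and a fall of -1.64 without LPS mice 6 and 7. Ccl7 was at 29.8, 15.6 and 9.55 CPM with LPS, 28 and 16 CPM with dual treatment and 1.03, 3.85 and 2.16 CPM in the controls. Ccl12 was at 13.4, 14.1 and 6.03 CPM with LPS, 15.5 and 12.6 CPM with dual treatment and 0.979, 0.751 and 0.92 CPM in the controls. The dual-treated values of Ccl2, Ccl7 and Ccl12 lay within or beside the LPS range and above each control.

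The lists of interferon-induced genes were lowered in both dual-treated mice. The 3 CXCR3 ligands all fell (median log2FC -6.26). Cxcl11 was at 15.9, 10.6 and 5.64 CPM with LPS, 0.0908 and 0.176 CPM with dual treatment and 0.196, 0.0939 and 0.138 CPM in the controls, and the log2FC of Cxcl9 was -5.38. Guanylate-binding proteins and immunity-related GTPases, which attack the vacuoles of intracellular pathogens, fell in 13 of 15 cases with none rising (median log2FC -3.18). Against control, the median of this list was 4.44 with LPS and 0.90 with dual treatment, from contrasts that share libraries. From the LPS mean, the list's median was -2.91 in dual-treated mouse 2 and -3.79 in mouse 5. Gbp2 (ENSMUSG00000028270, chromosome 3, 142326349 to 142343779) was at 1249, 1219 and 859 CPM with LPS, 122 and 76.4 CPM with dual treatment and 40.2, 49.8 and 54.5 CPM in the controls (log2FC -3.48, 95% interval -4.09 to -2.87, adjusted p = 1.14e-05). Irgm1 was at 1106, 807 and 755 CPM with LPS, 76.8 and 49.9 CPM with dual treatment and 34.1, 42.6 and 40.5 CPM in the controls (log2FC -3.81, 95% interval -4.39 to -3.24, adjusted p = 6.62e-06). Dual-treated mouse 2 lay above mouse 5 for both, and both mice were far below the LPS range. Irgm2 and Gbp7 did not reach a 2-fold difference, at log2FC -0.32 (0.006 with library size scaling) and -0.88 (-1.14, a fall, without dual-treated mouse 2).

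Of 30 interferon-stimulated antiviral genes, 22 fell and 0 rose (median log2FC -1.93). The list's median difference from the LPS mean was -1.63 in mouse 2 and -2.25 in mouse 5. Rsad2, the enzyme viperin, was at 1035, 624 and 588 CPM with LPS, 39.5 and 11 CPM with dual treatment and 20.3, 21.3 and 17.5 CPM in the controls (log2FC -4.89, 95% interval -6.09 to -3.69, adjusted p = 6.41e-05). Irf1, a transcription factor that amplifies the response, was at 1122, 715 and 802 CPM with LPS, 110 and 120 CPM with dual treatment and 124, 140 and 146 CPM in the controls (log2FC -2.94, 95% interval -3.41 to -2.47, adjusted p = 7.95e-06). Its dual-treated values were below those of 3 of 3 LPS mice and at or below those of the controls. Oas2, which makes the activator of RNase L, was at 82.4, 76.5 and 75.1 CPM with LPS, 67.5 and 52.9 CPM with dual treatment and 9.05, 8.87 and 10.2 CPM in the controls (log2FC -0.37, 95% interval -0.65 to -0.096). Zbp1, a sensor of nucleic acids, was at 146, 163 and 107 CPM with LPS, 88.5 and 51.9 CPM with dual treatment and 4.65, 6.8 and 7.08 CPM in the controls (log2FC -0.98, 95% interval -1.56 to -0.41). Zbp1 lay at the threshold and passed as a fall with DESeq2 or RLE size factors (-1.04 in both), in the fit of 5 libraries (-1.0), and without LPS mouse 7 (-1.15), dual-treated mouse 2 (-1.44), control mouse 4 (-1.01) or LPS mice 6 and 7 (-1.06). For Oas2 and Zbp1 each dual-treated mouse was well above the controls. Of 17 genes for MHC class I and the immunoproteasome, 7 fell (median log2FC -0.76). Tap1, a peptide transporter for class I loading, was at 949, 811 and 740 CPM with LPS, 133 and 92.2 CPM with dual treatment and 62.7, 54.4 and 57.5 CPM in the controls (log2FC -2.89), while the class I heavy chain H2-K1 was at 4303, 3472 and 2855 CPM with LPS, 2706 and 2311 CPM with dual treatment and 1563, 1270 and 1461 CPM in the controls (log2FC -0.50, 95% interval -0.93 to -0.062).

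Promoters of genes that fell together are shown because 2 motifs recur in them. The search covered the 250 bases before each start in RefSeq's table (GRCm38.p6), on both strands, for GAAANNGAA, a short form of the interferon-stimulated response element, and GGANNTTCC, a short form of the NF-kB motif. Of 32851 promoters in the table, 7.13% held the first and 3.59% the second. The table held 9 of the 15 guanylate-binding protein and GTPase genes, and 9 of their 10 promoters held the first motif and 2 the second. For the antiviral genes, 23 of 30 were in the table, and 11 of 29 promoters held the first motif and 4 the second. For the NF-kB genes, 16 of 21 were in the table, and 4 of 22 promoters held the first motif and 5 the second. For the neutrophil-attracting chemokines, 6 of 7 were in the table, and 0 of 6 promoters held the first motif and 3 the second. For the cytokines, 14 of 21 were in the table, and 1 of 18 promoters held the first motif and 5 the second. Among pan-endothelial genes, 13 of 22 were in the table, and 2 of 18 promoters held the first motif and 0 the second. Among resolving macrophage genes, which mostly rose, 18 of 21 were in the table, and 5 of 23 promoters held the first motif and 1 the second. A match is a description of letters, not a site of binding. The promoters of Cxcl10 (chr5:92348890-92349139, minus strand), Gbp2 (chr3:142620413-142620662, plus strand) and Nfkbia (chr12:55492648-55492897, minus strand) follow with matches in capitals. Counted back from the start, Cxcl10 held the first motif at position -213 and the second at -158, Gbp2 the first at -58, and Nfkbia the second at -178 and -29 and the first at -53.
Cxcl10: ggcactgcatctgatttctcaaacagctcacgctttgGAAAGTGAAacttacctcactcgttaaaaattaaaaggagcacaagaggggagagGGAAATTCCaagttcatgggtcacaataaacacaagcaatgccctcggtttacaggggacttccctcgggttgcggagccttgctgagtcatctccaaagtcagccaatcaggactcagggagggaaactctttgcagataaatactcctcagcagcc
Gbp2: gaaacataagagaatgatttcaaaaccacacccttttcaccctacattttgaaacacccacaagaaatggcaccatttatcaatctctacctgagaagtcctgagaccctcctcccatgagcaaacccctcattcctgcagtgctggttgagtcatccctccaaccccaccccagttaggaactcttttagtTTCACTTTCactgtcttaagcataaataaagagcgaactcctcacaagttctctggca
Nfkbia: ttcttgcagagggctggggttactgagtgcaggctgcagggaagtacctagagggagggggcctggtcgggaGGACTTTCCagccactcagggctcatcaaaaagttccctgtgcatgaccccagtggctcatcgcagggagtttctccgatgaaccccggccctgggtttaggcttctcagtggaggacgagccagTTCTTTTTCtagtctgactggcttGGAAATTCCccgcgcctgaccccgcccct

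Within the NF-kB list of subunits, feedback inhibitors and targets, 13 of 21 fell and 1 rose (median log2FC -1.24). Nfkbia (ENSMUSG00000021025, chromosome 12, 55535332 to 55539432), the inhibitor that NF-kB itself induces, was at 1743, 1382 and 1263 CPM with LPS, 463 and 300 CPM with dual treatment and 177, 161 and 163 CPM in the controls (log2FC -1.94, 95% interval -2.42 to -1.46, adjusted p = 6.74e-05). Tnfaip3, the deubiquitinase A20, was at 1020, 661 and 623 CPM with LPS, 152 and 73.6 CPM with dual treatment and 25.2, 26.1 and 29 CPM in the controls (log2FC -2.77, 95% interval -3.50 to -2.03, adjusted p = 0.000102). Cd14, the co-receptor for LPS, was at 1036, 719 and 629 CPM with LPS, 174 and 107 CPM with dual treatment and 40.2, 45 and 47.5 CPM in the controls (log2FC -2.50, 95% interval -3.10 to -1.90, adjusted p = 5.82e-05). These 3 fell in both dual-treated mice to between the LPS and control ranges. The subunit Rel reached the control range at 145, 91.9 and 100 CPM with LPS, 16.7 and 14.9 CPM with dual treatment and 17.4, 17.3 and 16.7 CPM in the controls (log2FC -2.83), whereas Nfkb1 and Nfkb2 differed by less than 2-fold (log2FC -0.59 and -0.70). Traf1 was the member that rose, at 44.6, 37.4 and 38.5 CPM with LPS, 83.4 and 80.7 CPM with dual treatment and 88.8, 108 and 112 CPM in the controls (log2FC 1.03), and it no longer passed without LPS mouse 6 or 7 or dual-treated mouse 2 (0.98 to 0.99), with DESeq2 or RLE size factors (0.98 in both) or without LPS mice 6 and 7 (0.87). Among suppressors of cytokine signalling, 5 of 8 fell and 1 rose. Socs1 was at 150, 81.5 and 94.6 CPM with LPS, 5.99 and 4.92 CPM with dual treatment and 4.75, 5.54 and 5.52 CPM in the controls (log2FC -4.32, 95% interval -4.95 to -3.68, adjusted p = 6.13e-06). Socs5 moved the other way at 11.3, 9.64 and 7.42 CPM with LPS, 58.9 and 56.2 CPM with dual treatment and 61.1, 60 and 58.7 CPM in the controls (log2FC 2.60, 95% interval 2.27 to 2.94, adjusted p = 3.77e-06).

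Stress and hormone genes are given by list, and the lists were not tested against each other. AP-1 and immediate early genes fell in 14 of 17 cases (median log2FC -1.90). Fosl2, an AP-1 subunit, was at 1194, 725 and 842 CPM with LPS, 100 and 83.5 CPM with dual treatment and 110, 95.4 and 94.6 CPM in the controls (log2FC -3.32, 95% interval -3.84 to -2.80, adjusted p = 7.64e-06), with both dual-treated mice inside or beside the control range. Glucocorticoid receptor targets fell in 8 of 12 (median log2FC -1.71). Dusp1, a phosphatase that inactivates MAP kinases, was at 1847, 982 and 1055 CPM with LPS, 296 and 252 CPM with dual treatment and 229, 213 and 217 CPM in the controls (log2FC -2.24, 95% interval -2.84 to -1.64, adjusted p = 0.000105). Fkbp5, a co-chaperone of the receptor, was at 253, 321 and 245 CPM with LPS, 282 and 174 CPM with dual treatment and 99.7, 66.5 and 70.4 CPM in the controls (log2FC -0.26, 95% interval -0.79 to 0.27). NRF2 targets fell in 7 of 12 (median log2FC -1.59). Gclc, which catalyses the first step of glutathione synthesis, was at 828, 672 and 913 CPM with LPS, 198 and 141 CPM with dual treatment and 175, 175 and 189 CPM in the controls (log2FC -2.25, 95% interval -2.67 to -1.82, adjusted p = 1.61e-05). Gsta1 was not counted in either dual-treated mouse and was at least 7.56-fold higher with LPS, with a floor of 3 counts per library. Hmox1, heme oxygenase 1, did not follow, at 147, 139 and 109 CPM with LPS, 266 and 169 CPM with dual treatment and 47.2, 64.2 and 46.9 CPM in the controls (log2FC 0.72, 95% interval 0.24 to 1.21). Its log2FC was 0.34 to 0.99 when 1 mouse was left out, and 1.06 with library size scaling. Among p53 targets 6 of 13 fell, led in abundance by Cdkn1a, the cell cycle inhibitor p21, at 1800, 1246 and 1213 CPM with LPS, 244 and 136 CPM with dual treatment and 160, 136 and 159 CPM in the controls (log2FC -2.91).

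The integrated and endoplasmic reticulum stress list had 5 of 18 members lower and 2 higher. Atf4, its main transcription factor, was at 838, 660 and 633 CPM with LPS, 303 and 220 CPM with dual treatment and 256, 238 and 241 CPM in the controls (log2FC -1.44), and Sdf2l1 and Pdia4, chaperones of the reticulum, rose (log2FC 1.72 and 1.30). Among circadian clock genes 8 of 18 fell and 2 rose. Nfil3, a repressor that clock output and cytokines control, was at 266, 153 and 176 CPM with LPS, 14.3 and 11.8 CPM with dual treatment and 10.8, 11.6 and 12.6 CPM in the controls (log2FC -3.93, 95% interval -4.49 to -3.36, adjusted p = 5.51e-06), and the 2 that rose lay near the threshold, with 1 passing without LPS mouse 1 or dual-treated mouse 5. With library size scaling 4 clock genes fell. Genes of metallothioneins and metal handling fell in 5 of 11 and rose in 1 (median log2FC -0.16, and 0.17 with 3 rising with library size scaling). Mt1, a metallothionein with the lowest log2FC of the list, was at 5283, 4708 and 3614 CPM with LPS, 516 and 195 CPM with dual treatment and 121, 86.2 and 91.2 CPM in the controls (log2FC -3.67, 95% interval -4.60 to -2.75, adjusted p = 7.47e-05). Acute-phase proteins fell in 17 of 20 (median log2FC -2.08). Saa3, a serum amyloid A of inflamed tissue, was at 6561, 9515 and 4355 CPM with LPS, 1762 and 1245 CPM with dual treatment and 7.34, 5.26 and 19.6 CPM in the controls (log2FC -2.18, 95% interval -3.35 to -1.0, adjusted p = 0.00572). Lcn2, which binds bacterial iron carriers, was at 14051, 14500 and 10156 CPM with LPS, 4471 and 1199 CPM with dual treatment and 149, 106 and 154 CPM in the controls (log2FC -2.19, 95% interval -3.27 to -1.11, adjusted p = 0.00361). Both dual-treated mice kept Saa3 and Lcn2 far above the control range, and without mouse 2 the log2FC of Lcn2 was -3.45.

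**Figure D2:**
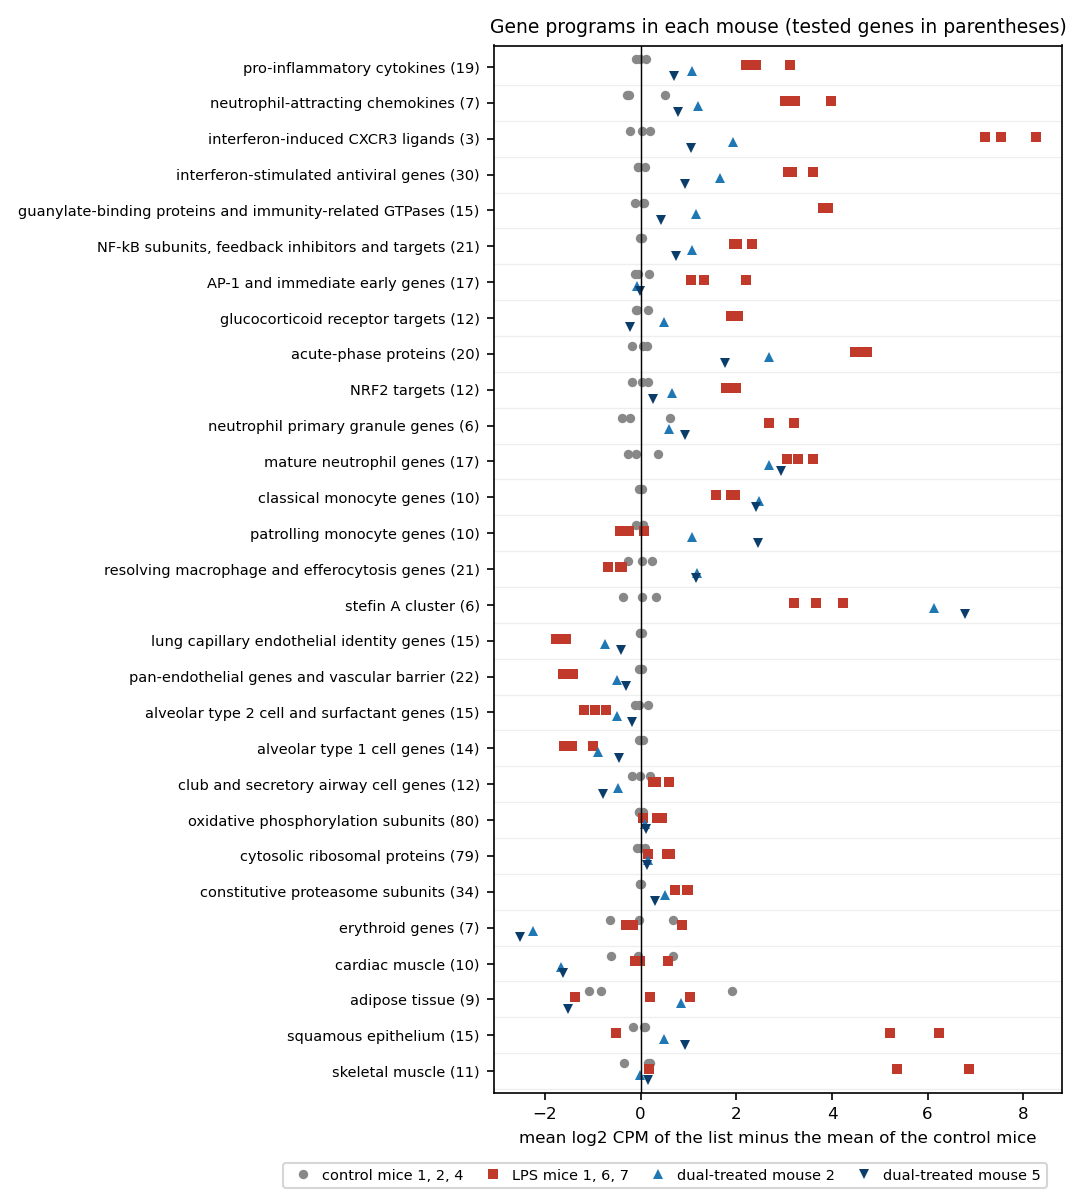
Mean log2 CPM of 29 gene lists in each mouse, minus the mean of the control mice, with the number of tested genes in parentheses. The dual-treated mice (triangles) lie between the LPS mice (squares) and the controls (circles) in the interferon, pan-endothelial and capillary lists, near the LPS mice in mature neutrophil genes, and beyond both groups in erythroid, cardiac muscle and stefin A genes.

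Neutrophil genes are given by stage, and the stages were not tested against each other. Of 6 primary granule genes, which are transcribed in precursors, 5 fell (median log2FC -2.48), and 3 fell without dual-treated mouse 2. Prtn3, proteinase 3, was at 13.1, 13.2 and 9.6 CPM with LPS, 3.77 and 4.26 CPM with dual treatment and 1.61, 2.21 and 1.33 CPM in the controls (log2FC -1.58). Among 17 genes of mature neutrophils, 7 fell and 4 rose (median log2FC -0.55), and the number that rose was 2 without LPS mouse 7 and 2 without dual-treated mouse 5. S100a8 (ENSMUSG00000056054, chromosome 3, 90567118 to 90578128), a subunit of calprotectin, was at 576, 846 and 520 CPM with LPS, 511 and 712 CPM with dual treatment and 45.3, 26.8 and 27.3 CPM in the controls (log2FC -0.083, 95% interval -0.71 to 0.54, adjusted p = 0.81). Its dual-treated values lay inside or beside the LPS range, and each was above each control. Its partner S100a9 was at 1362, 1856 and 1183 CPM with LPS, 832 and 1171 CPM with dual treatment and 98.3, 55.5 and 57.3 CPM in the controls (log2FC -0.55, 95% interval -1.20 to 0.096). Cxcr2, a chemokine receptor, and Csf3r, the receptor for granulocyte colony-stimulating factor, rose. Cxcr2 was at 17.1, 14 and 9.49 CPM with LPS, 27 and 48.3 CPM with dual treatment and 7.58, 3 and 3.63 CPM in the controls (log2FC 1.48, 95% interval 0.61 to 2.34, adjusted p = 0.00863). Csf3r was at 39, 48.9 and 38.1 CPM with LPS, 55.7 and 118 CPM with dual treatment and 27.2, 18.2 and 18.8 CPM in the controls (log2FC 1.05, 95% interval 0.41 to 1.68, adjusted p = 0.0106). Without dual-treated mouse 5 neither receptor passed (log2FC 0.97 and 0.38), and Csf3r also did not pass without LPS mouse 1 (0.99) or 7 (0.97) or with DESeq2 or RLE size factors (0.99 in both). In contrast Ly6g, a surface marker of mouse neutrophils, was at 10.1, 26.7 and 11.5 CPM with LPS, 0.908 and 3.86 CPM with dual treatment and 0.832, 0.141 and 0.368 CPM in the controls (log2FC -2.75, 95% interval -4.30 to -1.19, adjusted p = 0.00732, with -4.17 without dual-treated mouse 5). Il1r2, the decoy receptor for interleukin 1, was at 171, 173 and 126 CPM with LPS, 65.3 and 39.8 CPM with dual treatment and 1.66, 1.69 and 1.66 CPM in the controls (log2FC -1.57).

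Secondary and tertiary granule genes numbered 8, of which 3 fell and 1 rose (median log2FC -0.24, and 0.094 with 3 rising with library size scaling). Mmp9, gelatinase B, was at 65, 111 and 72.3 CPM with LPS, 85 and 96.5 CPM with dual treatment and 16.2, 10 and 9.06 CPM in the controls (log2FC 0.13, 95% interval -0.46 to 0.72). Camp, the cathelicidin precursor, was at 75.1, 45.2 and 18.5 CPM with LPS, 5.99 and 5.88 CPM with dual treatment and 7.14, 3.8 and 4.64 CPM in the controls (log2FC -2.96). Mmp8, neutrophil collagenase, rose, at 26.9, 51.7 and 21.7 CPM with LPS, 68.6 and 73.2 CPM with dual treatment and 5.04, 2.86 and 4.14 CPM in the controls (log2FC 1.08), but did not pass without LPS mouse 1 or 7 or either dual-treated mouse (0.84 to 1.10). The stefin A cluster of cysteine protease inhibitors on chromosome 16, whose close paralogs may share reads, went beyond both groups. Of 6 tested members, 5 rose. Stfa2 was at 0.653, 2.54 and 1.45 CPM with LPS, 16.4 and 31 CPM with dual treatment and 0, 0 and 0 CPM in the controls (log2FC 3.93, 95% interval 2.77 to 5.09, adjusted p = 0.000382). Stfa3 was at 0.593, 1.1 and 0.837 CPM with LPS, 11.8 and 19.2 CPM with dual treatment and 0, 0 and 0 CPM in the controls (log2FC 4.19, 95% interval 3.37 to 5.02, adjusted p = 5.54e-05). Cstdc5 was at 0.178, 0.809 and 0.726 CPM with LPS, 9.48 and 17.3 CPM with dual treatment and 0, 0 and 0 CPM in the controls (log2FC 4.53, 95% interval 3.32 to 5.74, adjusted p = 0.000233). The controls had no count of these 3 genes, and with a floor of 3 counts per library dual treatment was at least 167-fold above control for Stfa2, 109-fold for Stfa3 and 94.3-fold for Cstdc5. Padi4, which encodes PAD4, was at 4.45, 5.2 and 4.19 CPM with LPS, 11.4 and 23.1 CPM with dual treatment and 6.65, 3.47 and 10.6 CPM in the controls (log2FC 1.90, 95% interval 0.96 to 2.85, adjusted p = 0.00371), so both dual-treated mice were above each LPS mouse and mouse 5 was also the highest of all 8 lungs. Padi2 was at 3.68, 2.77 and 3.07 CPM with LPS, 3.31 and 4.65 CPM with dual treatment and 2.94, 3.33 and 3.86 CPM in the controls (log2FC 0.33, 95% interval -0.27 to 0.92). When 1 mouse was left out, the log2FC of Padi2 was 0.042 to 0.53. Of the 5 genes of the enzyme family 3 could be tested, of which 1 rose and 0 fell, with log2FC from -0.88 to 1.90.

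Endothelial genes were among those that rose. In the set of 10 genes whose rise stood farthest from 0, Sox18 (ENSMUSG00000046470, chromosome 2, 181311629 to 181313438), a transcription factor of endothelium, was at 1.96, 2.02 and 1.62 CPM with LPS, 145 and 157 CPM with dual treatment and 333, 353 and 411 CPM in the controls (log2FC 6.33, 95% interval 5.98 to 6.68, adjusted p = 1.08e-07). Gja5, the arterial gap junction protein connexin 40, was at 0.771, 0.635 and 0.391 CPM with LPS, 12.7 and 29.9 CPM with dual treatment and 36.7, 41.2 and 46 CPM in the controls (log2FC 5.14, 95% interval 4.24 to 6.04, adjusted p = 1.14e-05). Rtkn2, a GTPase effector found in alveolar type 1 cells, was at 6.59, 4.5 and 4.97 CPM with LPS, 129 and 163 CPM with dual treatment and 310, 317 and 289 CPM in the controls (log2FC 4.77, 95% interval 4.38 to 5.16, adjusted p = 4.14e-07). All dual-treated values of these genes were below all control values, and above all LPS values as the selection required. Clec1a, a lectin receptor of endothelium, was at 2.14, 1.39 and 2.18 CPM with LPS, 96.1 and 120 CPM with dual treatment and 175, 187 and 169 CPM in the controls (log2FC 5.82, 95% interval 5.42 to 6.23, adjusted p = 3.18e-07). Clec9a, a dendritic cell receptor, was at 0.534, 0.52 and 0.781 CPM with LPS, 25.5 and 30 CPM with dual treatment and 64.6, 56.6 and 61.4 CPM in the controls (log2FC 5.48, 95% interval 5.08 to 5.89, adjusted p = 3.18e-07), but its interval on chromosome 6 (129385825 to 129401726) lies inside that of Clec1a (129383906 to 129428963), and the strand setting of the counts is not stated. Also in the set were Rem1, a small GTPase, at 6.9 and 16.6 CPM with dual treatment against 0.237, 0.231 and 0.223 with LPS, and Prrt4 at 7.67 and 30.4 against 0.237, 0.52 and 0.335. Abcg3, an ABC transporter, was at 0.119, 0.0578 and 0.112 CPM with LPS, 6.04 and 15.5 CPM with dual treatment and 4.06, 4.51 and 5.1 CPM in the controls. Tifab, a TIFA-related signalling protein, was at 1.72, 1.5 and 0.781 CPM with LPS, 36.9 and 48.3 CPM with dual treatment and 10.6, 9.71 and 11.3 CPM in the controls. Both ended above each control. The last of the 10, Adgre4, is given with the genes beyond both groups.

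**Figure D3:**
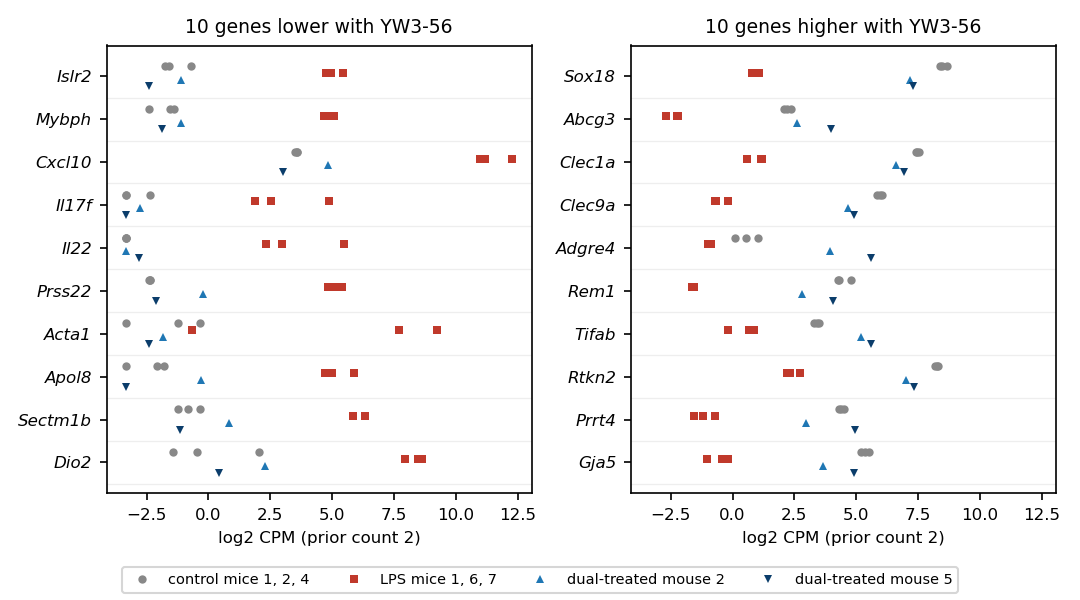
Log2 CPM in each mouse of the 10 protein-coding genes whose interval stood farthest below 0 (left) and above 0 (right). By selection no value of the LPS mice (squares) overlaps one of the dual-treated mice (triangles). On the left Acta1 in LPS mouse 1 sits near the controls (circles). On the right both dual-treated mice also sit above the controls in Abcg3, Adgre4 and Tifab.

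Of 22 pan-endothelial and vascular barrier genes, 12 rose and 3 fell (median log2FC 1.34). Against control the median was -1.44 with LPS and -0.34 with dual treatment. From the LPS mean it was 1.08 in mouse 2 and 1.46 in mouse 5. Calcrl (ENSMUSG00000059588, chromosome 2, 84160957 to 84255755), the receptor that Ramp2 turns into an adrenomedullin receptor, was at 22.2, 24.5 and 24.8 CPM with LPS, 352 and 572 CPM with dual treatment and 719, 830 and 719 CPM in the controls (log2FC 4.27, 95% interval 3.82 to 4.72, adjusted p = 1.64e-06). Ramp2 itself was at 31.1, 37.8 and 36.6 CPM with LPS, 462 and 520 CPM with dual treatment and 547, 515 and 527 CPM in the controls (log2FC 3.80, 95% interval 3.52 to 4.09, adjusted p = 3.18e-07). Pecam1, a junction protein, was at 254, 218 and 213 CPM with LPS, 1073 and 912 CPM with dual treatment and 618, 679 and 672 CPM in the controls (log2FC 2.12, 95% interval 1.83 to 2.41, adjusted p = 4.67e-06). Pecam1 in both dual-treated mice was above each control. The junction gene Cdh5 differed little, at log2FC -0.44 with an interval within 2-fold. Angpt2, which opposes signalling by the angiopoietin receptor, fell, at 77, 74.3 and 69.6 CPM with LPS, 24.9 and 22.8 CPM with dual treatment and 43.2, 51.7 and 43.2 CPM in the controls (log2FC -1.63), as did Robo4 (log2FC -1.36) and Esm1.

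Capillary identity genes rose in 8 of 15 cases and fell in 1 (median log2FC 1.32, and 0.80 without dual-treated mouse 5). Hpgd, which breaks down prostaglandins, was at 127, 109 and 86.4 CPM with LPS, 719 and 653 CPM with dual treatment and 758, 875 and 810 CPM in the controls (log2FC 2.67, 95% interval 2.31 to 3.04, adjusted p = 4.64e-06). Car4, a carbonic anhydrase of aerocytes, was at 178, 169 and 102 CPM with LPS, 113 and 206 CPM with dual treatment and 141, 156 and 162 CPM in the controls (log2FC 0.095, 95% interval -0.52 to 0.71). Lyve1, a hyaluronan receptor, was the member that fell, at 2056, 1787 and 1504 CPM with LPS, 513 and 248 CPM with dual treatment and 334, 273 and 209 CPM in the controls (log2FC -2.23, 95% interval -2.95 to -1.50, adjusted p = 0.000325). Among leukocyte adhesion molecules, 4 of 10 fell (2 without LPS mouse 1) and 1 rose (3 without dual-treated mouse 5). Icam1, a ligand of leukocyte integrins, was at 2428, 1755 and 1736 CPM with LPS, 842 and 546 CPM with dual treatment and 450, 439 and 457 CPM in the controls (log2FC -1.51, 95% interval -2.0 to -1.02, adjusted p = 0.000329). Vcam1 was at 288, 140 and 156 CPM with LPS, 79.4 and 70.2 CPM with dual treatment and 44.6, 50.4 and 41.1 CPM in the controls (log2FC -1.38, and -0.99, short of the threshold, without LPS mouse 1). Icam2, present on resting endothelium, was at 22.2, 13.3 and 18 CPM with LPS, 120 and 225 CPM with dual treatment and 122, 138 and 136 CPM in the controls (log2FC 3.27, 95% interval 2.68 to 3.87, adjusted p = 1.34e-05). Within coagulation and fibrinolysis 6 of 15 rose and 3 fell. Thbd, the anticoagulant thrombomodulin, was at 152, 96 and 116 CPM with LPS, 324 and 557 CPM with dual treatment and 529, 654 and 611 CPM in the controls (log2FC 1.86, 95% interval 1.31 to 2.40, adjusted p = 0.00018). F3, tissue factor, was at 295, 179 and 177 CPM with LPS, 74.3 and 92.3 CPM with dual treatment and 66.6, 60.9 and 55 CPM in the controls (log2FC -1.38, 95% interval -1.89 to -0.87, adjusted p = 0.000717).

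Epithelial genes are given by list, without a test between lists. Of 15 genes of alveolar type 2 cells, 3 rose, near the share in all genes, and 1 fell, with 8 bounded within 2-fold (median log2FC 0.46, and 0.80 with 6 rising and 0 falling with library size scaling). Etv5, a transcription factor of these cells, was at 23.8, 25.2 and 22.6 CPM with LPS, 142 and 175 CPM with dual treatment and 236, 182 and 251 CPM in the controls (log2FC 2.73, 95% interval 2.38 to 3.08, adjusted p = 3.71e-06). The surfactant genes Sftpc and Sftpb were at log2FC 0.14 and 0.37 (-0.51 and -0.018 without dual-treated mouse 5), and dual-treated mouse 5 was the higher of the pair for both. Of 14 type 1 cell genes, 6 rose and 2 fell, with 1 falling without LPS mouse 1 or dual-treated mouse 2 and 0 with library size scaling. Their median log2FC was 0.071, -0.036 without LPS mouse 7 and -0.23 without dual-treated mouse 5. Cav1, caveolin 1, was at 274, 159 and 122 CPM with LPS, 576 and 1060 CPM with dual treatment and 1530, 1519 and 1462 CPM in the controls (log2FC 2.14, 95% interval 1.41 to 2.88, adjusted p = 0.000448). Lung lineage transcription factors had 2 of 16 higher and 5 lower (median log2FC -0.75, with 3 higher and 3 lower with library size scaling and 1 higher without LPS mouse 1 or dual-treated mouse 5). Of those that rose, Nkx2-1 was at 61.3, 63.4 and 53.9 CPM with LPS, 234 and 206 CPM with dual treatment and 317, 306 and 309 CPM in the controls (log2FC 1.88, 95% interval 1.63 to 2.13, adjusted p = 3.97e-06). That was the highest log2FC of the list, whose lowest was -3.43, and 10 of 16 were below 0.

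Of 12 airway secretory genes 6 fell and 1 rose (5 and 2 with library size scaling, and 0 rising with DESeq2 or RLE size factors or without control mouse 4 or LPS mouse 1 or 6, and 2 without LPS mouse 7). Scgb1a1, the club cell secretoglobin, was at 65313, 55395 and 53726 CPM with LPS, 22675 and 25095 CPM with dual treatment and 29414, 36837 and 34433 CPM in the controls (log2FC -1.28, 95% interval -1.77 to -0.80, adjusted p = 0.000762), so both dual-treated mice were below each control as well, but with library size scaling it did not pass (-0.95). Muc5b, a gel-forming mucin, was at 1187, 1035 and 2100 CPM with LPS, 314 and 70.4 CPM with dual treatment and 85.1, 86.7 and 81.9 CPM in the controls (log2FC -2.90, 95% interval -4.18 to -1.63, adjusted p = 0.00185, with -4.38 without dual-treated mouse 2). Motile cilium genes fell in 4 of 19, a count that became 1 with library size scaling, 1 without LPS mouse 7, 9 without LPS mouse 1, 9 without LPS mouse 6 and 1 without dual-treated mouse 5. Cdh1, epithelial cadherin, was at 954, 722 and 783 CPM with LPS, 203 and 222 CPM with dual treatment and 296, 298 and 301 CPM in the controls (log2FC -1.95, 95% interval -2.28 to -1.62, adjusted p = 9.79e-06) and was among 4 of 11 epithelial junction genes that fell. Among stromal genes, Inmt, a methyltransferase of lung fibroblasts, was at 177, 161 and 145 CPM with LPS, 1247 and 2165 CPM with dual treatment and 2935, 2958 and 3280 CPM in the controls (log2FC 3.40, 95% interval 2.91 to 3.90, adjusted p = 5.77e-06). Smooth muscle and pericyte genes rose in 3 of 14 and fell in 3, shares near those of all genes (median log2FC -0.28). The median of the smooth muscle list was 0.036 with library size scaling, with 5 rising and 2 falling, and 0.0044 without dual-treated mouse 2. The fibroblast and matrix list as a whole had 6 of 21 higher and 2 lower (5 without dual-treated mouse 5). Its median log2FC was -0.015 (0.305 with library size scaling), 11 of 21 were below 0, and Inmt had the highest log2FC.

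Macrophage genes of the resolving and scavenging kind rose in 15 of 21 cases and fell in 0 (median log2FC 1.43). C1qa (ENSMUSG00000036887, chromosome 4, 136623223 to 136626161), a chain of complement C1q, was at 19.6, 18.7 and 17.4 CPM with LPS, 122 and 109 CPM with dual treatment and 29.3, 20.3 and 27.1 CPM in the controls (log2FC 2.64, 95% interval 2.30 to 2.98, adjusted p = 3.71e-06). Msr1, a scavenger receptor, was at 13.5, 16.1 and 7.93 CPM with LPS, 128 and 57 CPM with dual treatment and 5.97, 3.94 and 6.71 CPM in the controls (log2FC 2.89, 95% interval 2.06 to 3.71, adjusted p = 0.000153). C1qa and Msr1 in both dual-treated mice were above all LPS and control mice, and Msr1 was higher in mouse 2. Alveolar macrophage genes rose in 5 of 17 and fell in 1 (8 and 0 with library size scaling). Among those that rose was Marco, a scavenger receptor, at 53.5, 62 and 31.4 CPM with LPS, 158 and 125 CPM with dual treatment and 44.9, 18.1 and 27.8 CPM in the controls (log2FC 1.53, 95% interval 0.75 to 2.32, adjusted p = 0.00434).

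Monocyte genes are given by subset, and the subsets were not tested against each other. Patrolling monocyte genes rose in 8 of 10 and fell in 1, with a median log2FC of 2.47 that was 1.29 without dual-treated mouse 5, where 6 rose. Treml4, a receptor of the patrolling subset, was at 2.43, 4.39 and 3.63 CPM with LPS, 11.6 and 46.1 CPM with dual treatment and 1.17, 1.27 and 1.52 CPM in the controls (log2FC 3.05, 95% interval 1.96 to 4.14, adjusted p = 0.000565). Cx3cr1, its fractalkine receptor, was at 1.25, 0.751 and 0.112 CPM with LPS, 1.77 and 20.3 CPM with dual treatment and 6.21, 6.1 and 6.71 CPM in the controls (log2FC 3.97, 95% interval 1.92 to 6.02, adjusted p = 0.00453). Mouse 5 held most of the signal of both genes, and without it the log2FC was 1.70 for Treml4 and 1.32 for Cx3cr1, which then did not pass. Ace, also a list member and strongly expressed by lung endothelium, was at 102, 60.5 and 91.3 CPM with LPS, 923 and 1269 CPM with dual treatment and 1104, 1007 and 1269 CPM in the controls (log2FC 3.70, 95% interval 3.17 to 4.22, adjusted p = 5.29e-06). Of 10 classical monocyte genes, 3 rose and 2 fell (4 and 1 with library size scaling). Ccr2, their chemokine receptor, was at 2.31, 2.08 and 1.73 CPM with LPS, 25.1 and 30.5 CPM with dual treatment and 21.7, 16.7 and 17.7 CPM in the controls (log2FC 3.77, 95% interval 3.33 to 4.20, adjusted p = 2.42e-06). Ly6c2, their surface marker, was at 78.6, 85.9 and 50.9 CPM with LPS, 80.4 and 79.3 CPM with dual treatment and 5.77, 6.19 and 8.83 CPM in the controls (log2FC 0.15, 95% interval -0.34 to 0.65). Ly6c2 was about as high with dual treatment as with LPS, while Ccr2 in both dual-treated mice was above each control.

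Dendritic cell genes fell in 8 of 17 and rose in 3, and 6 rose without dual-treated mouse 5. Of the 3, Clec9a may take reads of Clec1a. Ccl22, a chemokine of mature dendritic cells, was at 98.5, 84.7 and 69.3 CPM with LPS, 5.45 and 4.13 CPM with dual treatment and 8.76, 7.09 and 8 CPM in the controls (log2FC -4.13, 95% interval -4.60 to -3.67, adjusted p = 2.38e-06). T lymphocyte genes fell in 4 of 15 with 0 rising, and 1 rose with library size scaling or without LPS mouse 1 or 7 or dual-treated mouse 5. Genes of natural killer and cytotoxic cells rose in 3 and fell in 2 of 13, shares near those of all genes. The number rising was 5 without LPS mouse 1 and 6 with library size scaling. B lymphocyte genes fell in 1 and rose in 7 of 13, a count that was 3 without dual-treated mouse 2, when the median log2FC went from 1.37 to 0.025. Ighm, the immunoglobulin M heavy chain, was at 79.8, 107 and 78.3 CPM with LPS, 1294 and 69.2 CPM with dual treatment and 59.4, 58.7 and 57.6 CPM in the controls (log2FC 2.95, 95% interval 1.15 to 4.75, adjusted p = 0.0108), so mouse 2 alone stood apart, and without it the log2FC was -0.38.

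Some genes that LPS had moved far were left within 2-fold of the LPS level. The named set holds the most abundant genes whose log2FC for LPS against control had a lower bound over 2 while dual treatment against LPS was bounded within 2-fold, a pair of conditions that 32 protein-coding genes met. Besides S100a8, Mmp9, Oas2 and Ly6c2 it held Fcgr2b, the inhibitory Fc receptor, at 161, 166 and 114 CPM with LPS, 136 and 84.7 CPM with dual treatment and 28, 22.7 and 24.5 CPM in the controls (log2FC -0.42, 95% interval -0.91 to 0.069). Ikbke, a kinase upstream of interferon genes, was at 116, 164 and 140 CPM with LPS, 106 and 96.6 CPM with dual treatment and 13.1, 10.7 and 16.5 CPM in the controls (log2FC -0.47, 95% interval -0.88 to -0.056). Wfdc17, a small secreted protein of myeloid cells, was at 112, 127 and 73.9 CPM with LPS, 75 and 82.2 CPM with dual treatment and 8.66, 4.51 and 5.47 CPM in the controls (log2FC -0.41, 95% interval -0.99 to 0.17). Cd300lf, an inhibitory receptor, was at 99.6, 112 and 84.2 CPM with LPS, 71 and 65.1 CPM with dual treatment and 16.2, 12.6 and 13.3 CPM in the controls (log2FC -0.53, 95% interval -0.86 to -0.21). For Ikbke, Cd300lf and Oas2 both dual-treated mice were below each LPS mouse, as in 32.9% of all genes. Both dual-treated mice were above each control in this set, which the pair of conditions nearly fixes in advance. In the other direction 1 gene met the mirrored conditions: Mgl2 (ENSMUSG00000040950, chromosome 11, 70020954 to 70028376), a lectin of macrophages and dendritic cells, was at 1.01, 1.91 and 1.51 CPM with LPS, 1.23 and 1.98 CPM with dual treatment and 15.1, 16.1 and 17.2 CPM in the controls (log2FC 0.12, 95% interval -0.57 to 0.81).

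Core cellular machinery differed by list in how closely it was bounded. Of 80 tested oxidative phosphorylation subunits, 68 were bounded within 2-fold, 2 rose (0 without dual-treated mouse 5) and 2 fell. Of 79 cytosolic ribosomal protein genes, 73 were bounded within 2-fold and 1 fell, or 2 without LPS mouse 7 or dual-treated mouse 5 and 0 without dual-treated mouse 2. The medians, -0.22 and -0.29, changed sign with library size scaling to 0.12 and 0.042. Of 34 constitutive proteasome subunits, 24 were so bounded and 1 fell, with 6 falling without dual-treated mouse 2 and 2 without LPS mouse 7. Both dual-treated mice were below the 3 LPS mice in 28 of these 34 genes, against 32.9% of all genes (median log2FC -0.53). With library size scaling the median was -0.20, with 1 rising and 0 falling, and with upper-quartile factors or without dual-treated mouse 5 0 fell. Cholesterol and fatty acid synthesis had 11 of 20 bounded, and lysosome genes 12 of 21. Among 27 genes of cell cycle and replication, 12 were bounded, against 35.1% of all genes, and 4 rose, a number that was 7 with library size scaling, 7 without LPS mouse 1, 7 without dual-treated mouse 5 and 2 without dual-treated mouse 2. Mki67, a marker of cycling cells, was at 40, 25.8 and 26 CPM with LPS, 57.9 and 29.3 CPM with dual treatment and 7.68, 6.66 and 7.26 CPM in the controls (log2FC 0.51, 95% interval -0.11 to 1.13). Glycolysis and hypoxia genes rose in 3 and fell in 5 of 21, with 9 bounded (median log2FC -0.08, and 0.25 with 5 rising and 3 falling with library size scaling, and 0.0031 to 0.071 with upper-quartile factors or without LPS mouse 1 or 7 or dual-treated mouse 5, with 1 rising in the last of these). Pkm, pyruvate kinase, was at 1061, 1090 and 867 CPM with LPS, 942 and 805 CPM with dual treatment and 391, 398 and 412 CPM in the controls (log2FC -0.20, 95% interval -0.52 to 0.11), whereas Hif1a, the hypoxia-inducible factor, was at 448, 336 and 329 CPM with LPS, 90.2 and 51.3 CPM with dual treatment and 41.1, 44.5 and 46.4 CPM in the controls (log2FC -2.39, 95% interval -2.94 to -1.84, adjusted p = 4.54e-05).

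Other genes passed the control level as well as the LPS level. Adgre4, an adhesion receptor of myeloid cells, was at 0.415, 0.404 and 0.447 CPM with LPS, 15.2 and 48.2 CPM with dual treatment and 1.91, 1.36 and 0.966 CPM in the controls (log2FC 6.21, 95% interval 5.02 to 7.40, adjusted p = 1.71e-05), and against control its log2FC was 4.49. F13a1, the A chain of coagulation factor XIII, was at 13.2, 16.4 and 12.7 CPM with LPS, 96.8 and 110 CPM with dual treatment and 8.32, 11.4 and 10.7 CPM in the controls (log2FC 2.87, 95% interval 2.52 to 3.23, adjusted p = 3.12e-06). Aif1, an actin-binding protein of macrophages, was at 1.66, 3.41 and 2.01 CPM with LPS, 20.7 and 21.7 CPM with dual treatment and 3.08, 1.78 and 1.84 CPM in the controls (log2FC 3.17, 95% interval 2.44 to 3.89, adjusted p = 4.62e-05). Clec4a1, a C-type lectin receptor, was at 5.87, 7.22 and 6.42 CPM with LPS, 40.6 and 41.7 CPM with dual treatment and 2.98, 3.14 and 2.44 CPM in the controls (log2FC 2.66, 95% interval 2.31 to 3.01, adjusted p = 3.97e-06). Wnt9b, a Wnt ligand, was at 0, 0.462 and 0.279 CPM with LPS, 16.3 and 9.75 CPM with dual treatment and 0.147, 1.31 and 0.184 CPM in the controls (log2FC 5.67, 95% interval 3.70 to 7.65, adjusted p = 0.000487). These genes were picked for lying above both other groups, so higher values than in the other 6 lungs follow from the choice.

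Below both groups lay genes of red cells and muscle. Erythroid genes fell in 7 of 7 cases (median log2FC -2.55), and their summed level was 3308, 1895 and 1482 CPM with LPS, 428 and 382 CPM with dual treatment and 1737, 3919 and 2789 CPM in the controls. Hbb-bs, a beta globin, had the most CPM of the list, at 1571, 829 and 698 CPM with LPS, 206 and 184 CPM with dual treatment and 856, 2024 and 1454 CPM in the controls (log2FC -2.41, 95% interval -3.36 to -1.45, adjusted p = 0.00105). Hba-a1 was at 1071, 782 and 515 CPM with LPS, 156 and 146 CPM with dual treatment and 613, 1233 and 908 CPM in the controls (log2FC -2.39), Hba-a2 at 34 and 23.8 CPM with dual treatment (log2FC -2.56) and Hbb-bt at 19.5 and 18 CPM (log2FC -3.14). Alas2, the heme synthesis enzyme of red cell precursors, was at 81.1, 43.9 and 36.8 CPM with LPS, 10.9 and 9.66 CPM with dual treatment and 33.7, 85.2 and 56.3 CPM in the controls (log2FC -2.39, 95% interval -3.37 to -1.41, adjusted p = 0.00128). Cardiac muscle genes fell in 8 of 10 (median log2FC -2.02) with a summed level of 647, 1004 and 614 CPM with LPS, 268 and 261 CPM with dual treatment and 464, 1260 and 721 CPM in the controls, and Myh6, cardiac myosin, had the most CPM and did not pass (log2FC -0.90). Ckmt2, the mitochondrial creatine kinase of muscle, was at 12, 18.6 and 13.8 CPM with LPS, 2 and 2.41 CPM with dual treatment and 5.63, 26.7 and 15.5 CPM in the controls (log2FC -2.74, 95% interval -4.03 to -1.46, adjusted p = 0.00269). Hbb-bs, Alas2 and Ckmt2 were picked for lying below both other groups, so lower values than in the other 6 lungs follow from the choice. Whether blood or heart tissue content differed between the lungs was not tested. Cnn1, a smooth muscle calponin, was at 32.2, 33.8 and 30.4 CPM with LPS, 5.35 and 6.5 CPM with dual treatment and 22.5, 33.2 and 25.5 CPM in the controls (log2FC -2.44, 95% interval -2.87 to -2.0, adjusted p = 1.19e-05). Esm1, a proteoglycan secreted by endothelium, was at 31.8, 28.1 and 23.6 CPM with LPS, 5.94 and 4.79 CPM with dual treatment and 46.5, 34 and 23.2 CPM in the controls (log2FC -2.37, 95% interval -3.03 to -1.72, adjusted p = 0.000123).

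The 8 protein-coding genes that differed most between the dual-treated mice, among those with at least 10 CPM in 1 of them, were higher in mouse 2. Fabp4, a fatty acid carrier of fat and endothelium, was at 57.3, 133 and 192 CPM with LPS, 741 and 38.2 CPM with dual treatment and 36.8, 203 and 28.3 CPM in the controls. Cfd, adipsin, was at 58.1, 120 and 128 CPM with LPS, 345 and 25.4 CPM with dual treatment and 43.9, 235 and 57.3 CPM in the controls. Retn, resistin, was at 3.38, 6.76 and 3.24 CPM with LPS, 17.7 and 0.922 CPM with dual treatment and 2.01, 14.2 and 2.44 CPM in the controls. Pck1, the enzyme of gluconeogenesis, was at 0, 0.462 and 2.96 CPM with LPS, 39.8 and 1.98 CPM with dual treatment and 1.42, 7.51 and 0.598 CPM in the controls. The summed level of the 9 adipose genes was 93.2, 210 and 298 CPM with LPS, 546 and 65.1 CPM with dual treatment and 90.8, 471 and 109 CPM in the controls, with Cfd at the most CPM, and 1 of 9 rose by the test. Without Cfd and Retn, which are among the 8 genes, the other 7 summed to 31.8, 83 and 167 CPM with LPS, 183 and 38.7 CPM with dual treatment and 44.9, 221 and 48.8 CPM in the controls. The part of fat in these differences was not tested. Pou2af1, a coactivator of B cells, was at 1.84, 2.54 and 2.01 CPM with LPS, 49.2 and 3.07 CPM with dual treatment and 3.96, 4.6 and 3.49 CPM in the controls. Sele, the endothelial selectin, was at 18.5, 14.1 and 14.5 CPM with LPS, 38.1 and 2.46 CPM with dual treatment and 1.13, 0.939 and 0.92 CPM in the controls. Ptx3, an acute-phase pentraxin, was at 127, 64.7 and 89.6 CPM with LPS, 13 and 0.746 CPM with dual treatment and 1.22, 1.08 and 0.598 CPM in the controls. Serpina3k, a serine protease inhibitor, was at 0.415, 1.1 and 1 CPM with LPS, 13.7 and 0.395 CPM with dual treatment and 0.343, 0 and 0.138 CPM in the controls. Of these 8 genes, Ptx3 fell with dual treatment (log2FC -3.77, or -6.98 without mouse 2). Serpina3k, Pck1 and Pou2af1 rose, but without mouse 2 their log2FC was -1.11, 0.745 and 0.50 and none passed. Pck1 also did not pass without LPS mouse 1 (3.59) or 6 (3.79) and was at 6.43 without LPS mouse 7, and Serpina3k did not pass without any single LPS mouse (2.73 to 3.28) or control mouse 4 (3.02) or in the fit of 5 libraries (3.03), and neither passed with DESeq2 (4.14 and 3.01). Without mouse 2, Fabp4, Cfd, Retn and Sele were at -1.77, -2.04, -2.30 and -2.69, and Sele then passed as a fall. Without mouse 5, Fabp4 (2.51) and Sele (1.26) passed as a rise, as did Fabp4 (1.63) with no filter on low counts.

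Squamous epithelium and skeletal muscle genes were high in LPS mice 6 and 7, and their source was not tested. The summed level of the 17 squamous epithelium genes was 6.23, 922 and 2399 CPM with LPS, 18 and 33.7 CPM with dual treatment and 16.6, 19.1 and 21.2 CPM in the controls. Krt13 and Krt4, keratins of stratified epithelium, were the highest, with Krt13 at 0.297, 286 and 887 CPM with LPS, 0.545 and 0.878 CPM with dual treatment and 0.294, 0.0939 and 0.184 CPM in the controls. In LPS mouse 1 Krt4, Krtdap and Sprr3 were at 0. The 13 skeletal muscle genes summed to 21.4, 551 and 1408 CPM with LPS, 7.44 and 9.88 CPM with dual treatment and 10.9, 21.1 and 15.9 CPM in the controls, with Acta1 the highest and Myh1, Myoz1 and Pvalb at 0 in LPS mouse 1. By the test 10 of 15 squamous genes (with 1 rising) and 10 of 11 muscle genes fell (median log2FC -6.48, or -6.39 with Crct1 and Calm4 at the bound that 3 counts per library give, and -5.40). Without LPS mouse 7 the counts were 3 and 7, without LPS mouse 6 5 and 7, without dual-treated mouse 2 4 and 6, and without dual-treated mouse 5 4 and 6. Without both LPS mice, an alternative chosen after the data were seen, 0 squamous and 2 muscle genes fell, and 5 squamous genes rose (median log2FC 2.16). Then 13 of 15 guanylate-binding protein and GTPase genes and 11 of 20 acute-phase genes fell, and 10 of 22 pan-endothelial genes rose. MHC class I genes fell in 12 cases, T lymphocyte genes in 7 and motile cilium genes in 1, while 0 mature neutrophil genes, 3 B lymphocyte genes and 1 natural killer gene rose. Among named genes, Ly6g (-2.08), Cxcr2 (1.13), Csf3r (1.14), Cx3cr1 (3.14), Ighm (3.09), Pou2af1 (3.82) and Serpina3k (4.05) no longer passed, nor did Pck1, which had no count in LPS mouse 1. Ager passed as a fall (-1.03). Thymus and liver markers were near 0, with sums of at most 2.31 CPM in any lung.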

How the data were processed

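RNA from 8 lungs was sequenced (3 control, 3 LPS and 2 dual-treated mice), and samples were grouped by their labels. The authors checked reads with FastQC 0.11.9, trimmed them with Trim Galore, aligned them to GRCm39 with HISAT2 2.2.1 and counted them per gene with featureCounts 2.0.1, so the deposited values are raw counts. The annotation release, the strand setting and the treatment of multi-mapped reads are not stated, which leaves close paralogs and overlapping genes uncertain. Of 55416 identifiers, 54749 matched GENCODE M39, and the 667 others held 0.0533% of counts. The analysis used R 4.3.3 and edgeR 4.0.16: filterByExpr with the groups, TMM factors, and a quasi-likelihood fit of all 8 libraries with the contrast dual treatment minus LPS. The contrasts with control share libraries with it and are shown side by side without a test between them. Log2 CPM of single mice used a prior count of 2, and fold changes are those of the fit. Alternatives were DESeq2 1.42.0, other scalings, filters and thresholds, a fit of 5 libraries, and leaving out each mouse. The procedure was also run on simulated data, whose outcome is not reported here and is not used for any result.

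Named genes were the 10 called genes in each direction with the interval farthest from 0; the 8 most abundant left within 2-fold while their LPS against control bound passed a log2 of 2; the 8 in each direction farthest beyond both groups; the 8 with the largest difference between the dual-treated mice; and members of 66 gene lists, mostly with the counts of the list. The first 3 sets needed a mean of at least 10 CPM or the abundance order and were limited to protein-coding genes. The first set also required that no LPS value overlap a dual-treated value. List members beyond the most abundant were picked after their values were seen. The members and lists were chosen with earlier results of these data known. Lists were described by counts and medians, with no set test, and the values of some members are not reported here. Promoter sequences are from RefSeq (GRCm38.p6), searched on both strands.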

Additional observations from a re-analysis of the deposited data

How the results depend on the processing

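The 6264 genes called between dual treatment and LPS alone (3666 higher, 2598 lower) became 3378, 2082 and 1296 under a test against a 2-fold change, which asks more of each gene. With at least 10 counts in every library, 1688 genes were called lower, from fewer genes tested. The DESeq2 test, library size scaling, size factors (RLE), upper-quartile factors, no filter on low counts, unadjusted p and a fit of the 5 LPS and dual-treated libraries gave totals of 5826 to 6853. With 1 of the 8 mice left out, totals were 5231 to 6188, with 3120 to 3607 higher and 2111 to 2619 lower, and 4749 to 6102 of the genes were shared with the full set. Where this left 1 dual-treated mouse, that sample was assumed to vary like the others. An alternative chosen after seeing the data, without LPS mice 6 and 7, gave 5858 genes (3480 higher, 2378 lower), with the lone LPS sample assumed to vary like the other groups.

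Some named genes near 0 changed sign. With library size scaling the log2FC was 0.065 for Fkbp5, 0.006 for Irgm2, 0.13 for Pkm and 0.24 for S100a8. That scaling also took Il1b (-0.83) and Scgb1a1 (-0.95) below the fold threshold and Hmox1 (1.06) past it. With 1 mouse left out, the lowest and highest log2FC follow in parentheses. Mmp9 (-0.025 to 0.40) changed sign without LPS mouse 1. Mgl2 (-0.29 to 0.39) changed sign without LPS mouse 1 or dual-treated mouse 5. S100a8 (-0.37 to 0.15) changed sign without LPS mouse 6 or dual-treated mouse 2. Ly6c2 (-0.053 to 0.29) changed sign without LPS mouse 7. Ccl7 (-0.21 to 0.80) changed sign without LPS mouse 7 or dual-treated mouse 2. Car4 (-0.42 to 0.44) and Sftpc (-0.51 to 0.56) changed sign without LPS mouse 7 or dual-treated mouse 5. Cfd (-2.04 to 1.73), Csf1 (-0.13 to 0.63), Fabp4 (-1.77 to 2.51), Ighm (-0.38 to 3.85), Mki67 (-0.084 to 0.90), Retn (-2.30 to 1.96), Sele (-2.69 to 1.26) and Serpina3k (-1.11 to 3.98) changed sign without dual-treated mouse 2. Fkbp5 (-0.68 to 0.019) and Sftpb (-0.018 to 0.64) changed sign without dual-treated mouse 5. Without LPS mice 6 and 7, the log2FC changed sign to put Car4 at -0.16, Ccl7 at -0.44, Csf1 at -0.0098, Krt13 at 1.24, Krtdap at 5.83, Myoz1 at 6.23, S100a8 at 0.079, Sftpb at -0.019 and Sftpc at -0.33, with Krtdap and Myoz1 fitted against an LPS mouse without a count and no bound. The cause was not tested beyond the samples and scaling that each alternative changes. No paired analysis was possible because the compared groups share no mouse numbers. Genes with few counts in a group, such as Il22, Il17f and Gsta1, are limited by depth, and their intervals and floors cover counting error only.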

Other observations

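Complement genes rose in 4 of 17 and fell in 2, shares near those of all genes (6 and 0 with library size scaling, 5 and 1 without dual-treated mouse 5). C3ar1, the receptor for the complement fragment C3a, was at 3.8, 1.67 and 2.34 CPM with LPS, 33.9 and 23.5 CPM with dual treatment and 5.97, 5.21 and 5.93 CPM in the controls (log2FC 3.46, 95% interval 2.79 to 4.13, adjusted p = 1.86e-05). C3, the central component, was at 3240, 2987 and 2634 CPM with LPS, 2180 and 2181 CPM with dual treatment and 1526, 1344 and 1451 CPM in the controls (log2FC -0.44, 95% interval -0.76 to -0.12). Of 11 inflammasome genes, 3 rose and 3 fell (5 and 1 with library size scaling, 4 and 1 without dual-treated mouse 2). Casp4, the caspase that senses LPS inside cells, was at 119, 100 and 103 CPM with LPS, 41 and 28.3 CPM with dual treatment and 12.1, 11.7 and 11.1 CPM in the controls (log2FC -1.63, 95% interval -1.99 to -1.27, adjusted p = 3.63e-05). Pycard, the adaptor ASC, was at 7.89, 11.7 and 9.32 CPM with LPS, 28.3 and 19.8 CPM with dual treatment and 3.28, 3.43 and 4.87 CPM in the controls (log2FC 1.32, 95% interval 0.78 to 1.86, adjusted p = 0.00127). NADPH oxidase genes rose in 2 of 6 (1 without dual-treated mouse 5). Nos2, the inducible nitric oxide synthase, fell, at 31.1, 22.7 and 21.4 CPM with LPS, 8.3 and 7.9 CPM with dual treatment and 2.79, 2.53 and 3.82 CPM in the controls (log2FC -1.63, 95% interval -2.14 to -1.11, adjusted p = 0.000271). Acod1, which makes itaconate, was at 80, 58.6 and 54.5 CPM with LPS, 57.1 and 35.1 CPM with dual treatment and 8.86, 6.52 and 7.45 CPM in the controls (log2FC -0.48, 95% interval -1.0 to 0.037).

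Heat shock genes had 2 of 13 higher and 3 lower, shares near those of all genes. Hspa1a was at 2.79, 3.58 and 3.85 CPM with LPS, 26.1 and 23.8 CPM with dual treatment and 22.4, 26.6 and 31.5 CPM in the controls (log2FC 2.87, 95% interval 2.45 to 3.29, adjusted p = 6.16e-06), close to the control range, and Hspb1, a small heat shock protein, was at 713, 604 and 584 CPM with LPS, 151 and 137 CPM with dual treatment and 178, 189 and 219 CPM in the controls (log2FC -2.13, 95% interval -2.47 to -1.80, adjusted p = 7.64e-06). Genes of cytochrome P450 and aryl hydrocarbon receptor targets rose in 2 of 11 and fell in 1, shares near those of all genes. With library size scaling 5 rose, and 2 fell with DESeq2 or RLE size factors or without LPS mouse 1. Cyp1a1, a target of the aryl hydrocarbon receptor, was at 0.119, 0.116 and 0.391 CPM with LPS, 1.45 and 2.02 CPM with dual treatment and 16.2, 35.2 and 36.8 CPM in the controls (log2FC 3.01, 95% interval 1.68 to 4.33, adjusted p = 0.00193), so the dual-treated mice were above the LPS mice and far below the controls. Tiparp, another target of that receptor, was at 370, 262 and 251 CPM with LPS, 32.9 and 30.7 CPM with dual treatment and 33, 34.1 and 29.7 CPM in the controls (log2FC -3.21, 95% interval -3.64 to -2.78, adjusted p = 3.97e-06). Mesothelial genes rose in 3 of 7, and in 1 without dual-treated mouse 5. Platelet genes fell in 3 and rose in 1 of 7, and in 1 and 0 without dual-treated mouse 2.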
